A study of Mus musculus with 4 samples.

Results

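The genes described here are 20 of glucose uptake, glycolysis and lactate export and 14 of the hypoxia response, 34 of the 32285 genes counted. They were taken by symbol from the gene rows of the count matrices, not by a cut on measured values. Earlier results of these data were known when they were chosen. Aldoa has a second row with the same symbol, which held 113 UMIs in mononuclear phagocytes against 554406 in the row used (ENSMUSG00000030695). The cells were leukocytes from mice carrying B16-F10 tumours, a transplanted mouse melanoma line. Tumours were injected with either dilution buffer or an antibody to CD40, which antigen-presenting cells use to receive help from T cells. IgG or an antibody to PD1, a receptor that restrains T cells, was given intravenously. Injections were on days 8 and 11, and the tumours were collected on day 14. Cells of 6 mice per group were pooled, live CD45+ cells were sorted, and each group gave 1 droplet-based 5′ library: control (buffer and IgG), CD40 (the CD40 antibody; the labels do not say whether IgG was added), PD1 (the PD1 antibody; buffer likewise not stated) and combination (both antibodies). The sources used here do not give mouse strain, age or antibody clones. Because each group is 1 pooled library, no difference was tested. Intervals are 95% and cover counting error only, so mouse-to-mouse spread is unknown.

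Glycolysis splits glucose into pyruvate in the cytosol. Glucose enters through transporters such as Slc2a1 and Slc2a3, hexokinases trap it, and when pyruvate is turned into lactate by Ldha the lactate leaves through Slc16a1 or Slc16a3. Hypoxia acts on the same genes: prolyl hydroxylases such as Egln1 and Egln3 mark the factor HIF-1 alpha (Hif1a) for destruction when oxygen is present, and when oxygen falls HIF switches on glycolytic genes together with Vegfa, Adm, Bnip3, Hilpda, Ndrg1 and Ankrd37. Activated T cells and NK cells also raise glycolysis when oxygen is plentiful, and neutrophils depend on it. Both processes are therefore read here apart, cell class by cell class.

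The libraries held 8132, 8313, 10158 and 10091 barcodes in the order control, CD40, PD1 and combination, and every set of 4 values below is in that order. Total UMIs were 117735875 to 164755549 per library. Of 36007 distinct barcodes, 675 occurred in more than 1 library. Cells were assigned by UMIs of marker genes, none of them among the 34. The mononuclear phagocytes (monocytes and macrophages) numbered 3778, 3866, 5550 and 3346, the neutrophils 226, 582, 198 and 1346, the CD8 T cells 633, 1763, 1012 and 2952, the regulatory T cells 445, 120, 416 and 143 and the NK cells 484, 370, 649 and 493. Levels are given as CPM, the gene's UMIs per 1000000 UMIs summed over all genes in the class and library. A 5′ UMI stands for 1 captured transcript end whatever the length of the transcript, so no division by length was made. Median UMIs per cell differed between libraries, at 13995, 19272, 13018 and 17921 in phagocytes, 2140.5, 4070, 2462 and 4807 in neutrophils, 12138, 13092, 15708 and 13404 in CD8 T cells and 5606, 11000, 6172 and 10968 in NK cells. Fewer cells of a subtype and less RNA per cell cannot be told apart within a class sum. Several glycolytic genes (Gapdh, Aldoa, Ldha, Tpi1, Pgam1, Eno1 and Pgk1) have close copies or processed pseudogenes, so reads may have gone to either copy and their counts are uncertain. A gene is said to have risen or fallen with an antibody when it was at least 1.5-fold higher or lower, in the same direction, in both comparisons of that antibody that share no library. For the CD40 antibody these are CD40 against control and combination against PD1. For the PD1 antibody they are PD1 against control and combination against CD40. Each antibody's pair uses the same 4 libraries as the other's, so the antibodies' results are not independent.

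HIF binds short sequence words, ACGTG or GCGTG, in DNA near many of its targets. The 250 bases upstream of the RefSeq transcript start (GRCm38.p6) were searched for both words on both strands, with overlapping matches counted separately. At least 1 word was present in 14 of 19 glycolysis genes (73.7%) and 9 of 11 hypoxia genes (81.8%) with a window in the table. The share was 38.6% of all 27025 genes with a window there, which were not limited to the genes counted here. Where a gene had several windows, the first listed was used. The windows of some hypoxia genes named below, picked by hand and not by a ranking, are shown 5′ to 3′ on the strand of the gene. The words are in capitals (CACGT and CACGC are the words on the other strand).
Vegfa (chr17:46032378-46032627, minus strand): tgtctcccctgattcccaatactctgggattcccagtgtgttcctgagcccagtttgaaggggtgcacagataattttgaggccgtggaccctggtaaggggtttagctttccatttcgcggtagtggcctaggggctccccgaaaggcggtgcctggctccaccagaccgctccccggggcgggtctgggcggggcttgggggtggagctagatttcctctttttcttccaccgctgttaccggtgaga
Adm (chr7:110627407-110627656, plus strand): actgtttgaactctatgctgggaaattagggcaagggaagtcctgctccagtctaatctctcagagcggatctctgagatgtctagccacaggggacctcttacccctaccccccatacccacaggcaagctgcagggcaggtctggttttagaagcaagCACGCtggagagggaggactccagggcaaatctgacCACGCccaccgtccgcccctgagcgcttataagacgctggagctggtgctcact
Egln3 (chr12:54203875-54204124, minus strand): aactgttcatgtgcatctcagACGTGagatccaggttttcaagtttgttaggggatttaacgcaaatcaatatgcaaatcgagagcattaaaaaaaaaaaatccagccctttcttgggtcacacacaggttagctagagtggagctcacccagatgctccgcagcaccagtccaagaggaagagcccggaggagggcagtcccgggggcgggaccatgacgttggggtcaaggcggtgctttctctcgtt
Hilpda (chr6:29272238-29272487, plus strand): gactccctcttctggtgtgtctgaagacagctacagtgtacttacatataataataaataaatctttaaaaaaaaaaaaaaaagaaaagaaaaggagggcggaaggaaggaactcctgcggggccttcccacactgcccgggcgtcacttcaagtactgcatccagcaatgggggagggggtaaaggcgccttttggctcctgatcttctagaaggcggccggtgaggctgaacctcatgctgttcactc
Bnip3 (chr7:138909507-138909756, minus strand): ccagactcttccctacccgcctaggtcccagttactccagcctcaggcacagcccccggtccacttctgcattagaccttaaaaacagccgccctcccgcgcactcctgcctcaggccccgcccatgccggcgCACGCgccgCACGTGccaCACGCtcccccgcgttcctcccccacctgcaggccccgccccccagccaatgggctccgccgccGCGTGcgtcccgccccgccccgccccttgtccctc
Ankrd37 (chr8:45999851-46000100, minus strand): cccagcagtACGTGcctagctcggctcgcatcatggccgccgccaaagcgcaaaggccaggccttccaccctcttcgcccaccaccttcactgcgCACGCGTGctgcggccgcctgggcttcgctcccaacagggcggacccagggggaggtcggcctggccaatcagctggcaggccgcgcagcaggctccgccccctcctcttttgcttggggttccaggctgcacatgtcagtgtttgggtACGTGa
Bnip3, a mitophagy receptor of the outer mitochondrial membrane, held 5 words, Ankrd37 held 4, Adm held 2 and Egln3 held 1, while Vegfa and Hilpda held none in this window. A match describes letters, not binding. The Ankrd37 window lies inside the annotated gene (chr8:45996902-46005707, minus strand), away from the start given there. Slc2a3, Bnip3l, Ndrg1 and Ero1l had no window in the table.

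Across the cell classes, neutrophils held the highest CPM of most hypoxia genes in all 4 libraries. They were the highest of the 5 classes in every library for 9 of the 14 hypoxia genes and 7 of the 20 glycolysis genes, against 8.11% of all genes, and the highest class varied between libraries for 4 and 11 of them. Hilpda encodes a lipid droplet protein that blocks fat breakdown. Its level was 1292, 1257, 1733 and 1456 CPM in neutrophils and 190.3, 201, 203 and 187 CPM in phagocytes, and every neutrophil value lay above every phagocyte value. In the lymphocytes it was 22.6, 42.8, 61.8 and 67.5 CPM in CD8 T cells, 70.6, 77.4, 80.03 and 99.7 in regulatory T cells and 24, 17.2, 32.5 and 37.1 in NK cells. Vegfa (chr17:46016993-46032369, minus strand), the vascular endothelial growth factor, was read at 155, 151, 182 and 121 CPM in neutrophils and 82.5, 71.2, 74.6 and 48.1 CPM in phagocytes. It was near the floor in CD8 T cells, at 0.503, 1.45, 2.06 and 1.7 CPM, and higher in NK cells, at 31.2, 6.45, 47.8 and 12.5 CPM. Melanoma markers (Pmel, Mlana, Dct, Tyrp1 and Tyr) summed to 26.9, 14.8, 14.6 and 17.8 CPM in neutrophils and 14, 9.9, 12.5 and 8.79 CPM in phagocytes, against 11518 to 17387 CPM in the 3 to 13 cells per library gated as melanoma. Hif1a itself had another order. It was highest in regulatory T cells in all 4 libraries, at 559, 796, 599 and 748 CPM, against 243, 169, 267 and 252 in neutrophils, 188, 169, 228 and 264 in phagocytes, 155, 213, 170.4 and 253 in CD8 T cells and 117, 93.1, 138 and 127 in NK cells.

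**Figure D1:**
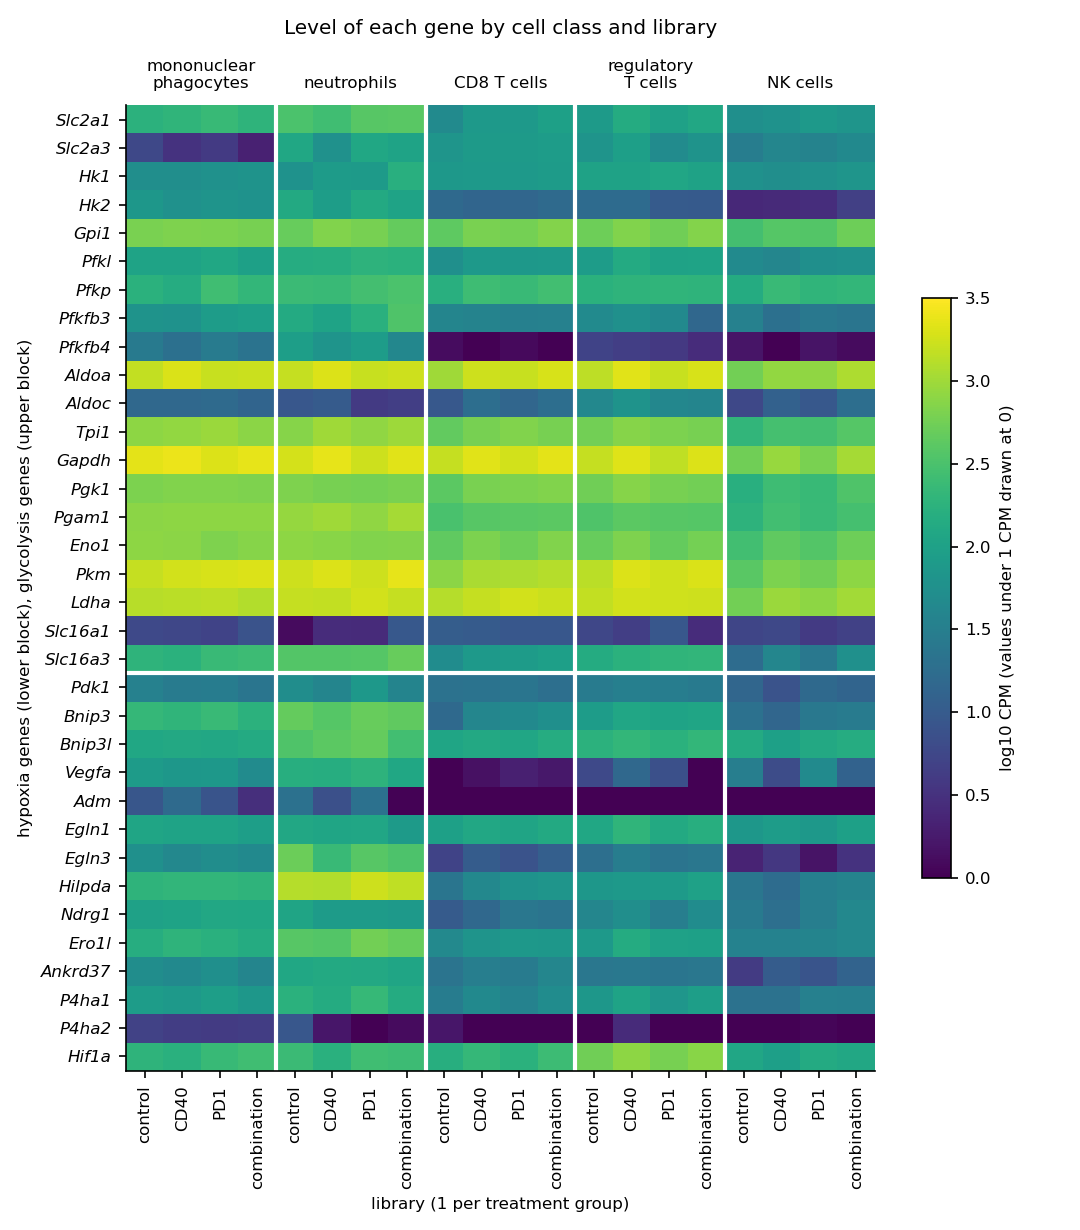
Heat map of the level of each of the 34 genes (rows, glycolysis genes above the white line and hypoxia genes below it) in the 4 libraries of the 5 cell classes (columns), coloured by log10 CPM with values under 1 CPM drawn at 0. Neutrophil Hilpda lies between 1257 and 1733 CPM, above every other class, and CD8 T cell Vegfa lies between 0.503 and 2.06 CPM.

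The paralogs at the first steps of the pathway differed by class. Slc2a3, the high-affinity glucose transporter, took 47.0 to 58.6% of the summed UMIs of Slc2a1 and Slc2a3 in CD8 T cells but 1.09 to 3.15% in phagocytes, ranges that do not overlap. The share was 18.2 to 27.1% in neutrophils, 32.8 to 44.5% in regulatory T cells and 33.1 to 40.9% in NK cells. Of the hexokinases, Hk2 took 48.8 to 57.5% of the summed Hk1 and Hk2 UMIs in phagocytes and 39.9 to 68.6% in neutrophils. In lymphocytes Hk1 dominated, with an Hk2 share of 15.5 to 17.7% in CD8 T cells, 7.83 to 14.0% in regulatory T cells and 4.08 to 6.44% in NK cells. Pfkfb4, which makes the activator of phosphofructokinase, was mainly a myeloid transcript. It stood at 92.2, 65.2, 86.5 and 42.2 CPM in neutrophils and 28.1, 19.3, 28.3 and 21.5 in phagocytes against 1.31, 0.706, 1.23 and 0.887 in CD8 T cells.

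In mononuclear phagocytes, the most numerous class, 33 of the 34 genes met the call in neither direction with the CD40 antibody, and Slc2a3 fell. Slc2a3 was 5.75 (5.2 to 6.34), 3.25 (2.9 to 3.63), 3.92 (3.52 to 4.36) and 2.09 (1.77 to 2.45) CPM, and the antibody-treated library was the lower of each pair. The log2 ratios were -0.82 (-1.04 to -0.61) for CD40 against control and -0.91 (-1.20 to -0.63) for combination against PD1, 1.77-fold and 1.88-fold lower, and the combination was the lowest of the 4. Falls of this kind were met by 4.03% of the 15336 genes with at least 30 UMIs in phagocytes and rises by 3.87%. No member was called for the PD1 antibody, against 2.78% of genes called higher and 5.07% called lower. The glycolysis median was 0.00 and -0.08 (log2, CD40 against control and combination against PD1), and the hypoxia median -0.12 and -0.25. Over all genes the medians were -0.02 and 0.01. In cells of 5000 to 15000 UMIs only, the glycolysis medians were -0.39 and -0.39 and the hypoxia medians -0.37 and -0.65, so these values depend on the depth of the cells included.

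None of the single genes below met the call in phagocytes, though Pfkp, Adm and Vegfa passed 1.5-fold in some comparisons. Gapdh, which oxidises glyceraldehyde phosphate, was 2244, 2533, 2049 and 2339 CPM, and Pkm, the pyruvate kinase, was 1551, 1802, 1938 and 2048 CPM. Slc2a1, the main glucose transporter here, was 176, 192, 229 and 189.6 CPM and lowest in the control. Pfkp, the platelet-type phosphofructokinase, was 171, 147, 267 and 206 CPM, with both libraries given the PD1 antibody above their partners without it. Its log2 ratios were 0.64 (0.61 to 0.67) for PD1 against control and 0.49 (0.45 to 0.52) for combination against CD40, the second under the 1.5-fold limit. Adm, the vasodilator peptide adrenomedullin, was 8.67 (7.99 to 9.4), 16.1 (15.3 to 16.9), 8.13 (7.54 to 8.74) and 2.95 (2.57 to 3.37) CPM, so the CD40 library was highest and the combination lowest. Its log2 ratio was 0.89 (0.76 to 1.03) in the first CD40 antibody comparison and -1.46 (-1.69 to -1.24) in the second, which are opposite in sign. Vegfa was 82.5, 71.2, 74.6 and 48.1 CPM, lowest in the combination, with log2 ratios of -0.21 (-0.26 to -0.16) and -0.63 (-0.69 to -0.57). Neutrophil markers summed to 91.3, 97.6, 126 and 172 CPM in the phagocytes and conventional dendritic cell markers to 43.2, 19.1, 54.1 and 31.4 CPM, and their part in these values was not tested.

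The make-up of the phagocytes differed between libraries, so they were divided by marker UMIs into C1q macrophages (1645, 1384, 1902 and 881 cells), classical monocytes with Ly6c2 (1088, 783, 1799 and 1022), non-classical monocytes with Ace, Treml4 or Adgre4 (492, 1068, 1101 and 1013) and phagocytes low in all of these, called C1q-low Ly6c2-low phagocytes (502, 360, 610 and 253). The remaining phagocytes carried both C1q and Ace, Treml4 or Adgre4 UMIs (51, 271, 138 and 177 cells, fewest in the control and most in the CD40 library). They were not compared, since the control held under 100, and their Vegfa was 41.8, 16.2, 26.6 and 9.22 CPM. The C1q-low Ly6c2-low group is named by what it lacks: it may hold several kinds of cell. It was the highest of the 4 in every library for 13 of 20 glycolysis and 10 of 14 hypoxia genes, against 3.84% of all 15215 genes measured. Non-classical monocytes were the lowest in every library for 17 of 20 and 12 of 14, against 13.6%. They are named by Ace, Treml4 or Adgre4 alone, since their gate set no limit on Ly6c2 and cells with Ly6c2 were not kept out. Ace, Treml4 and Adgre4 summed to 941 to 1123 CPM in them and the classical monocyte markers Ly6c2 and Ccr2 to 1383 to 1669 CPM. The latter summed to 2705 to 3294 CPM in the classical monocytes. Vegfa was 252, 189, 222 and 113 CPM in C1q-low Ly6c2-low phagocytes, 63.6, 74.7, 70.3 and 51.4 in C1q macrophages, 85.4, 83.2, 70.2 and 66.2 in classical monocytes and 20.6, 17, 13.1 and 9.16 in non-classical monocytes. The ranges of the first and last of these do not overlap with those of the middle pair. Egln3 followed the same order at its ends, at 171, 142, 156 and 172 CPM in the C1q-low Ly6c2-low and 19.7, 10.5, 15 and 9.6 in the non-classical cells. Hilpda was 531, 525, 622 and 588 CPM against 34.6, 48.1, 38.2 and 43.7 CPM, and Slc2a1 381, 378, 455 and 359.8 against 82.1, 73.9, 90.3 and 84.2. Neutrophil markers summed to 161, 143, 178 and 210.3 CPM in the C1q-low Ly6c2-low cells and 66.3, 62.2, 103 and 127 CPM in the C1q macrophages, beside 46505 to 53704 CPM in neutrophils. Dendritic cell markers summed to 53.3, 11.2, 75.7 and 24.1 CPM there, and the part of either in the order was not tested.

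**Figure D2:**
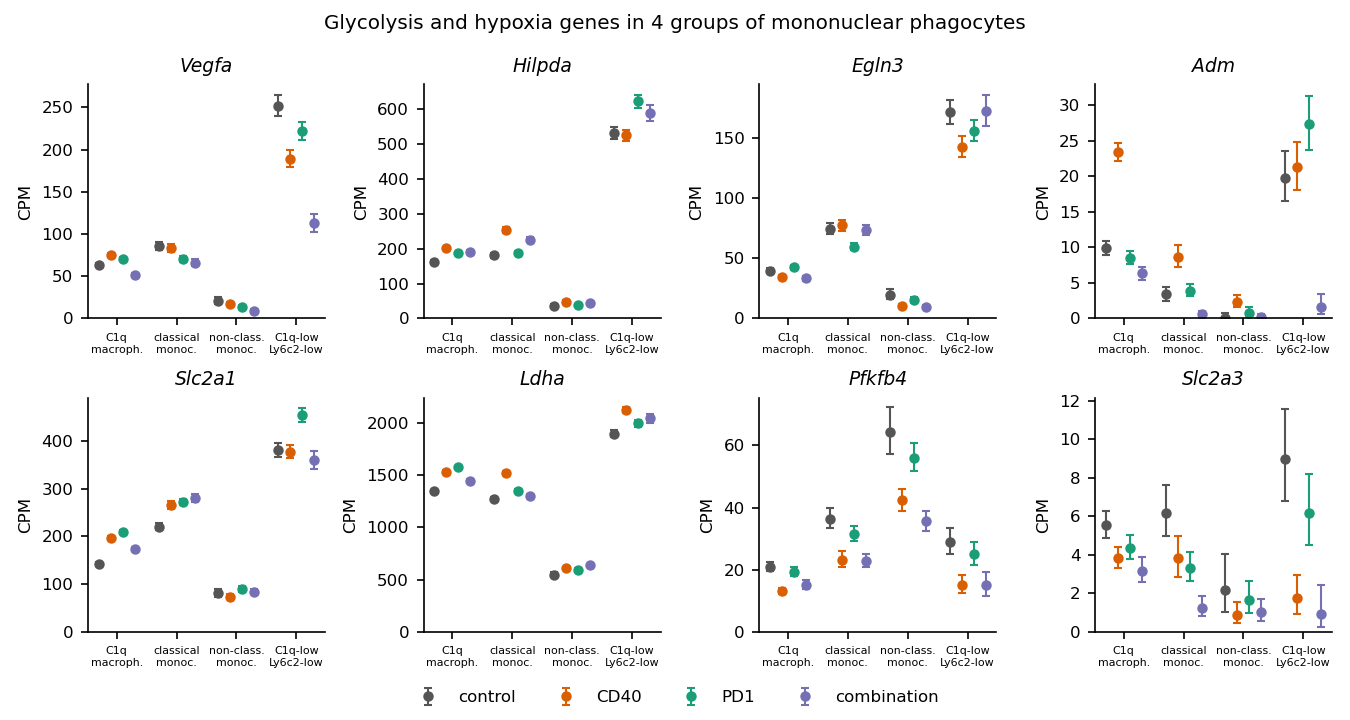
Levels of selected glycolysis and hypoxia genes (CPM, linear axes from 0 that differ between panels) in the 4 phagocyte groups, 1 point per library with its 95% Poisson interval. Vegfa lies between 113 and 252 CPM in C1q-low Ly6c2-low phagocytes and between 9.16 and 20.6 CPM in non-classical monocytes, while Pfkfb4 has non-classical monocytes on top.

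Pfkfb4 went against this order, since non-classical monocytes held the highest level in every library. It was 64.4, 42.4, 56 and 35.6 CPM there, 36.4, 23.2, 31.5 and 22.8 in classical monocytes, 29.1, 15.2, 25 and 15.1 in C1q-low Ly6c2-low cells and 21, 13.2, 19.4 and 15.2 in C1q macrophages. In all 4 groups the CD40 library lay below the control and the combination below PD1, with log2 ratios of -0.60 (-0.81 to -0.40) and -0.66 (-0.83 to -0.48) in non-classical monocytes. By the 1.5-fold call Pfkfb4 fell in non-classical monocytes and C1q-low Ly6c2-low cells. Slc2a3 was likewise lower in both comparisons in each group, and fell by the call in all but the C1q macrophages, in non-classical monocytes from 54 UMIs with intervals that include 0 (-1.28 (-2.62 to 0.09) and -0.69 (-1.81 to 0.40)). The log2 ratios were -0.54 (-0.82 to -0.26) and -0.46 (-0.83 to -0.10) in C1q macrophages and -0.70 (-1.21 to -0.19) and -1.40 (-2.13 to -0.73) in classical monocytes. They were -2.37 (-3.36 to -1.48) and -2.71 (-4.64 to -1.25) in C1q-low Ly6c2-low cells, where the levels were 8.96, 1.74, 6.16 and 0.944 CPM from 121 UMIs in all. Vegfa in the same cells was lowest in the combination, with log2 ratios of -0.41 (-0.52 to -0.31) and -0.98 (-1.13 to -0.83). Few other genes met the call in these groups. With the CD40 antibody the lactate carrier Slc16a1 rose in classical monocytes, at 4.3, 6.66, 6.11 and 11.8 CPM and log2 ratios of 0.63 (0.15 to 1.12) and 0.95 (0.63 to 1.26). Egln3 fell in non-classical monocytes, with log2 ratios of -0.91 (-1.31 to -0.52) and -0.64 (-0.99 to -0.30). P4ha2, a collagen prolyl hydroxylase subunit, rose in C1q-low Ly6c2-low cells at 4.79, 7.49, 5.62 and 10.9 CPM from 175 UMIs, with log2 ratios of 0.64 (-0.01 to 1.33) and 0.95 (0.31 to 1.59), the first with an interval that includes 0. With the PD1 antibody Pfkfb3 rose in C1q-low Ly6c2-low cells, at 94.9, 88.5, 143 and 223 CPM and log2 ratios of 0.59 (0.45 to 0.74) and 1.33 (1.19 to 1.48). Slc2a3 fell with it in classical monocytes, with log2 ratios of -0.89 (-1.35 to -0.44) and -1.60 (-2.36 to -0.88), and Vegfa in non-classical monocytes, with -0.65 (-1.04 to -0.26) and -0.89 (-1.22 to -0.57). No member was called in C1q macrophages with either antibody. Of all genes, the CD40 antibody calls took 3.18% higher and 4.63% lower in C1q macrophages, 2.43 and 3.87% in classical monocytes, 2.95 and 4.03% in non-classical monocytes and 3.88 and 5.64% in C1q-low Ly6c2-low cells. The PD1 antibody calls took 2.75 and 2.67%, 2.27 and 2.13%, 1.38 and 1.24%, and 3.04 and 3.09% in the same order. With 0 to 2 members called per direction in most groups and 3 at most, these counts lie near those shares.

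Within a single library, phagocytes that carried at least 1 Vegfa UMI also carried more of nearly all other members. Such cells made up 26.4, 23.4, 23.6 and 18.4% of the phagocytes. Leaving Vegfa out, 16 of 20 glycolysis and 12 of 13 hypoxia genes were at least 1.5-fold higher in these cells in every library, against 5.05% of all genes. Hilpda was 565, 656, 673 and 661 CPM in cells with a Vegfa UMI and 37.6, 38.5, 40.6 and 55.6 CPM in the rest. Egln3, the hydroxylase that HIF itself induces, was 169.9, 142, 172 and 174 CPM against 12, 8.21, 11.4 and 10.3 CPM. Slc2a1 was 409, 496, 524 and 444 CPM against 81.8, 84, 127 and 119 CPM. In each of these genes the lowest value with a Vegfa UMI lay above the highest value without one. Hif1a, whose protein rather than transcript is set by oxygen, differed less, at 242, 265, 302 and 388 CPM against 166, 135, 203 and 229 CPM. The hypoxia medians of the split were 2.10, 2.45, 2.18 and 2.38 and the glycolysis medians 1.10, 1.02, 0.97 and 1.13, against -0.18, -0.32, -0.18 and -0.22 over all genes (log2). Cells with a Vegfa UMI were deeper, at a median of 15426, 23806, 14284 and 21538 UMIs against 13535, 17882, 12676 and 17136. In C1q macrophages the depth went the other way, 21682, 31177, 18468 and 30026 against 23730, 39186, 20719 and 33109, and 14 of 20 and 11 of 13 were still higher in every library, against 4.32% of genes. The counts were 16 and 12 in classical monocytes (5.48% of genes) and 11 and 10 in C1q-low Ly6c2-low cells (3.23%). Cycling phagocytes, those with an Mki67 or Top2a UMI, were lower in the hypoxia genes than the other phagocytes of their library, with medians of -0.75, -0.67, -0.65 and -0.90 (log2), and in the glycolysis genes with medians of -0.30, -0.23, -0.27 and -0.34.

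Neutrophils are short-lived phagocytes that rely on glycolysis. With the CD40 antibody 1 of their 33 measured genes fell, Adm, from few counts. It was 20.5 (11.7 to 33.3), 7.12 (4.65 to 10.4), 19.95 (11.2 to 32.9) and 1.04 (0.477 to 1.98) CPM (66 UMIs in all), lower in both antibody-treated libraries. The log2 ratios were -1.52 (-2.48 to -0.53) and -4.26 (-5.63 to -2.97), and under a stricter gate on neutrophil markers the first was 0.047. Falls of this size were met by 9.21% and rises by 3.01% of 9961 genes. With the PD1 antibody Aldoc, the brain-type aldolase, fell at 8.96, 10.1, 3.99 and 4.52 CPM from 86 UMIs, against 5.36% of genes lower and 1.06% higher. With every cell given equal weight its log2 ratio of PD1 against control was 0.056, and the fall was lost.

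Some glycolysis genes were highest in the combination neutrophils, 8 of 20 against 10.2% of all genes. Pfkfb3, the main maker of the phosphofructokinase activator in activated cells, was 137 (112 to 166), 106 (96 to 117), 165 (137 to 197) and 339 (327 to 352) CPM. The combination was 2.06-fold above PD1 and 3.19-fold above CD40, with intervals that do not overlap those of the other libraries. Hk1 was 61.4, 83.8, 81.1 and 161 CPM and the lactate exporter Slc16a3 369, 362, 380.5 and 484 CPM, again with the combination highest. Slc16a1, the other lactate carrier, was 1.28, 2.74, 2.66 and 9.15 CPM from 92 UMIs. Not every enzyme of the early steps followed: Hk2 was 134, 88.7, 133 and 107 CPM, highest in the control, and Pfkl, the liver-type phosphofructokinase, 147, 153, 185 and 173 CPM, highest in PD1. The hypoxia genes did not share this order, since PD1 was highest in 8 of 13 (against 27.3% of all genes) and the combination lowest in 8 of 13. The combination was also the lowest library for 51.9% of all genes in this class. The all-gene median of combination against PD1 was -0.36, so a median of 0.14 for glycolysis and -0.25 for hypoxia lies above it in both lists. Median-of-ratios scaling moved the all-gene median to -0.03, the glycolysis median to 0.46 and the hypoxia median to 0.08, which turns the sign of the last. Without the neutrophils that carried an Il1a UMI (214, 528, 188 and 712 cells remained) the medians were -0.06 and -0.71, against an all-gene median of -0.11. C1q transcripts of macrophages summed to 128, 203, 762 and 114 CPM in the neutrophils, highest in PD1, and their part was not tested. In neutrophils with a Vegfa UMI, 11 of 20 glycolysis and 9 of 12 hypoxia genes were at least 1.5-fold higher in every library, against 4.26% of genes. Hilpda, for one, was 2775, 2308, 3201 and 2259.8 CPM with and 701, 663, 953 and 1063 CPM without one. The neutrophils with a Vegfa UMI numbered 39, 183, 52 and 395. They were deeper, at median UMIs of 3450, 4756, 2858 and 5393 against 2020, 3810, 2275.5 and 4547. The all-gene medians of this split were 0.33, -0.07, 0.17 and -0.10 (log2).

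In CD8 T cells, the cytotoxic lymphocytes, the control library held the lowest level of most members. It was lowest of the 4 for 16 of 20 glycolysis and 11 of 13 hypoxia genes, against 30.1% of all genes, and the combination was highest for 14 and 8, against 28.1%. Aldoa, the main aldolase, was 1002, 1718, 1616 and 1921 CPM, so the control lay below the other 3. Pgk1 was 417, 628, 636 and 680.2 CPM, Pkm 779.7, 1141, 1155 and 1305 CPM and Gapdh 1539.8, 2170.5, 1828 and 2308 CPM, with the control lowest in each. Bnip3 was 15.9 (13.5 to 18.6), 40.6 (38.3 to 43), 46.6 (43.6 to 49.7) and 54.6 (52.6 to 56.6) CPM, with the control interval below the other 3. The control differed from both single antibodies, with glycolysis medians of 0.47 for CD40 and 0.42 for PD1 and hypoxia medians of 0.54 and 0.34. Differences among the treated libraries were smaller, with glycolysis medians of 0.13 for combination against PD1 and 0.11 for combination against CD40. Over all genes the medians lay at -0.02 (CD40 against control) and 0.03 (combination against PD1).

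By the call that needs both comparisons, none of the 33 measured genes rose or fell in CD8 T cells with the CD40 antibody, against 3.51% of 13683 genes higher and 5.01% lower. With the PD1 antibody 1 rose, Hilpda, against 1.12% higher and 2.03% lower over all genes. Hilpda was 22.6 (19.8 to 25.8), 42.8 (40.4 to 45.2), 61.8 (58.3 to 65.4) and 67.5 (65.3 to 69.8) CPM. The log2 ratios were 1.45 (1.24 to 1.66) for PD1 against control and 0.66 (0.56 to 0.75) for combination against CD40. Each library with the PD1 antibody lay above its partner without it. Vegfa was detected in 1, 5, 3 and 6 CD8 T cells after thinning to 2000 UMIs, so its log2 ratios carry little information there.

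**Figure D3:**
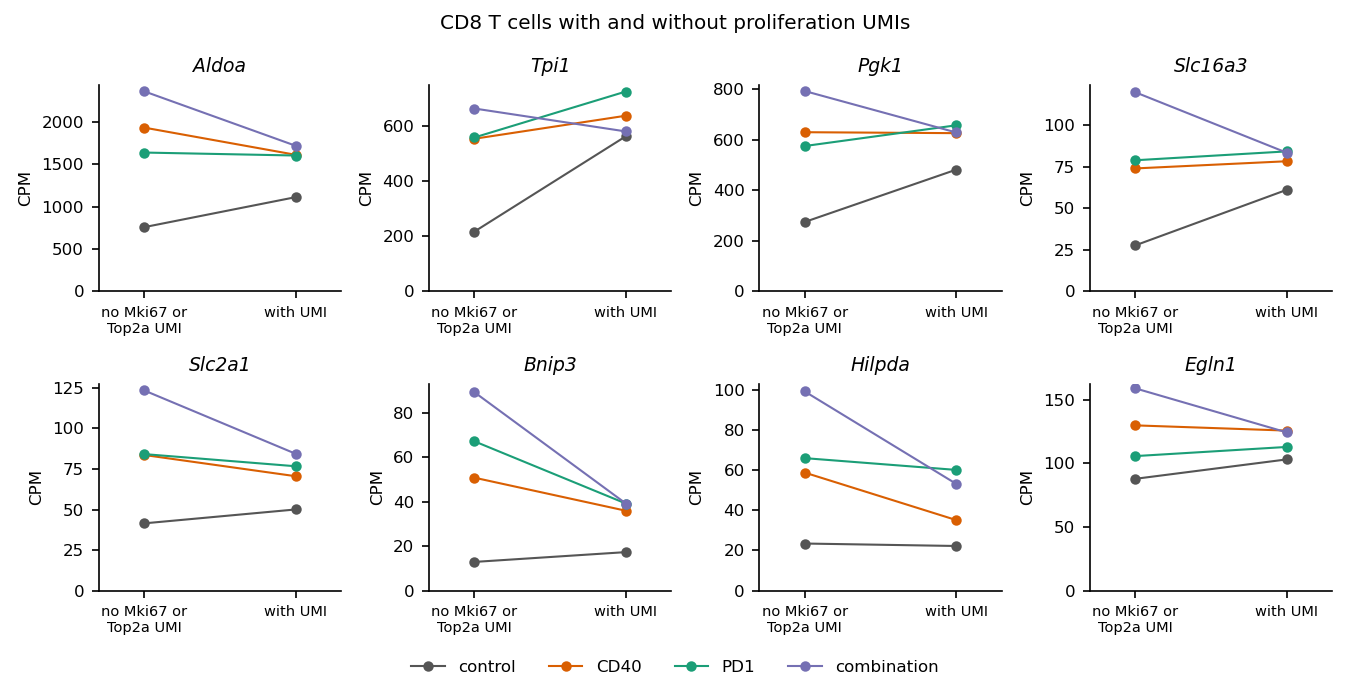
CPM of glycolysis and hypoxia genes in CD8 T cells with and without an Mki67 or Top2a UMI, 1 line per library, on linear axes from 0 and without intervals. In cells without these UMIs Tpi1 was 217 CPM in the control and 555 to 665 CPM in the other 3 libraries, whereas in cells with them it was 564 CPM in the control and 582 to 727 CPM elsewhere.

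The gap between the control and the other libraries was larger in CD8 T cells without proliferation transcripts than in cycling ones, by the medians of both lists below. Cells with an Mki67 or Top2a UMI were 48, 54.9, 55.7 and 54.7% of the class. In cells without them the control was lowest for 18 of 20 glycolysis and 11 of 12 hypoxia genes, against 33% of genes. Tpi1, the triose phosphate isomerase, was 217, 555, 559.7 and 665 CPM in these cells and 564, 639, 727 and 582 CPM in the cycling ones. Slc16a3 (chr11:120948480-120960868, plus strand) was 27.6, 74.1, 79 and 120.1 CPM against 61.1, 78.4, 84.3 and 83.6 CPM. In both genes the control alone stood far below in cells without proliferation UMIs, and the gap was narrower in cycling cells. Bnip3 was 12.9, 50.7, 67 and 89.1 CPM without and 17.3, 35.8, 39.1 and 39.1 CPM with proliferation UMIs, so here the control was lowest in both. Restricted to cells without proliferation UMIs, 7 of 32 measured genes rose with the CD40 antibody: Aldoc, Ankrd37, Eno1, Gapdh, Hilpda, P4ha1 and Slc16a3. Over all 11704 genes of these cells, 2.65% rose and 4.72% fell. For Gapdh, at 1003, 2067, 1546 and 2489.5 CPM, the log2 ratios were 1.04 (0.99 to 1.10) and 0.69 (0.65 to 0.72). For Aldoc, at 8.68, 27, 17 and 28.1 CPM, they were 1.64 (1.06 to 2.27) and 0.73 (0.40 to 1.08). The glycolysis medians were 1.00 for CD40 against control and 0.45 for combination against PD1, and the hypoxia medians 1.06 and 0.51. In cycling cells they were 0.33 and -0.02 for glycolysis and 0.36 and 0.00 for hypoxia. In cells of 5000 to 15000 UMIs (306, 960, 423 and 1529 cells) 15 of 31 genes rose and none fell, against 3.11% of all genes higher and 4.89% lower, so the count of genes called with the CD40 antibody ran from 0 to 15 with the cells included. Dendritic cell markers summed to 240.2, 65.2, 91.5 and 80.7 CPM in the CD8 T cells, highest in the control. That list includes Ccr7 and Dpp4, which are not limited to dendritic cells, so the sum need not stand for stray dendritic cells. The classical monocyte markers Ly6c2 and Ccr2, which activated T cells also express, summed to 469, 944, 607 and 1099.6 CPM. C1q transcripts summed to 17.4, 20.6, 16 and 12.9 CPM and melanoma markers to 2.71, 2.47, 2.78 and 2.25 CPM. Which cells these transcripts came from, and their part in the control values, was not tested.

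Regulatory T cells, which suppress other T cells and are marked by Foxp3, had higher hypoxia genes in the CD40 library. This library was highest for 10 of 12 hypoxia and 13 of 20 glycolysis genes, against 27% of all genes, but it held only 120 of these cells. No gene was called with the CD40 antibody, against 1.7% of 10736 genes higher and 4.77% lower. Ero1l, an oxidase of protein folding, was 79.3 (71.2 to 88.2), 141 (120.3 to 165), 102 (91.9 to 112) and 96.9 (81.5 to 114) CPM, and the CD40 interval lay above the other 3. Egln1, the main oxygen-sensing hydroxylase, was 121, 194, 132 and 156 CPM and Hif1a 559, 796, 599 and 748 CPM, each with both libraries given the CD40 antibody above their partners. For Hif1a the log2 ratios were 0.51 (0.40 to 0.62) and 0.32 (0.21 to 0.42), under the 1.5-fold limit. Slc2a1 was 80.5, 141, 101 and 126 CPM with log2 ratios of 0.81 (0.53 to 1.09) and 0.32 (0.05 to 0.57). The hypoxia medians were 0.47 and 0.19 and the glycolysis medians 0.38 and -0.02. Pfkfb3 stood low in the combination alone, at 47.9 (41.6 to 54.9), 56.9 (43.8 to 72.7), 46 (39.5 to 53.2) and 14.6 (9.07 to 22.4) CPM. Hk2 fell with the PD1 antibody, at 17, 16.9, 10.2 and 9.76 CPM from 147 UMIs, against 2.17% of genes lower and 1.25% higher. In cells of 5000 to 15000 UMIs the log2 ratio of PD1 against control for Hk2 was 0.15. Dendritic cell markers summed to 297, 273, 99.1 and 73.2 CPM and neutrophil markers to 175, 349, 245 and 423 CPM in this class. These lists include Ccr7 and Dpp4 (dendritic) and Il1r2 (neutrophil), genes not limited to those cells. In NK cells the same lists summed to 9.81 to 24.8 CPM and 2.21 to 10.9 CPM. Which cells these transcripts came from, and their part in the values, was not tested.

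NK cells are innate cytotoxic lymphocytes. With the CD40 antibody 4 of their 19 measured glycolysis genes rose (Slc16a3, Aldoc, Gapdh and Pgk1) and none fell, while of 12 hypoxia genes 2 rose (Ankrd37 and Egln3) and 1 fell (Vegfa). Rises were met by 6.21% of 10921 genes and falls by 7.28%. Slc16a3 was 17 (12.8 to 22.2), 39.8 (34.2 to 45.9), 25.2 (20.8 to 30.3) and 56.9 (51.1 to 63.2) CPM. Both libraries with the CD40 antibody lay above both without it, and the log2 ratios were 1.22 (0.78 to 1.69) and 1.17 (0.87 to 1.49). Gapdh was 555 (529.8 to 582), 898 (871 to 926), 624 (601 to 648) and 1056 (1031 to 1082) CPM and showed the same order, with log2 ratios of 0.69 (0.61 to 0.78) and 0.76 (0.69 to 0.82). Pgk1, which makes the first ATP of the pathway, was 161, 262, 226 and 348 CPM, with log2 ratios of 0.70 (0.55 to 0.85) and 0.62 (0.51 to 0.73). Aldoc was 5.67, 12, 9.29 and 18.2 CPM and Ankrd37, an ankyrin repeat protein, 4.1, 10.3, 8.19 and 13.2 CPM. Their log2 ratios were 1.09 (0.30 to 1.94) and 0.97 (0.44 to 1.51) for Aldoc and 1.33 (0.43 to 2.34) and 0.69 (0.11 to 1.29) for Ankrd37. Egln3 was 2.21, 3.65, 1.55 and 3.22 CPM from 51 UMIs. Pkm, Eno1, Ldha and Aldoa were also higher in both comparisons, at log2 ratios of 0.68 and 0.57, 0.69 and 0.55, 0.72 and 0.39, and 0.61 and 0.46, without passing the limit in both. The glycolysis medians were 0.59 and 0.39, and the hypoxia medians -0.40 and 0.18, which differ in sign. The all-gene medians were -0.06 and -0.07.

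Proliferation, depth and stress transcripts moved with these values. Cells with an Mki67 or Top2a UMI were 12, 43.2, 14.5 and 38.5% of the NK cells, and all 12 proliferation genes rose with the CD40 antibody, at medians of 2.26 and 2.53. Of 10 dissociation stress genes 4 fell (Hspa1b, Hspa1a, Dusp1 and Atf3), at medians of -0.87 and -0.43. The monocyte and macrophage markers summed to 306, 874, 314 and 776 CPM, a list that includes Ly6c2, which activated NK cells also express, while C1q transcripts summed to 25.8, 23.2, 43.6 and 15.8 CPM. In NK cells without proliferation UMIs the glycolysis medians were 0.56 and 0.60, against 0.59 and 0.39 in all NK cells. Gapdh there was 516, 803, 555 and 1056 CPM, with log2 ratios of 0.64 (0.53 to 0.75) and 0.93 (0.85 to 1.01). In the cycling cells Gapdh was 736, 973, 876 and 1056 CPM, with log2 ratios of 0.40 (0.25 to 0.55) and 0.27 (0.16 to 0.38). In cells without proliferation UMIs the hypoxia medians were -0.11 and 0.55.

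Vegfa went the other way from glycolysis in NK cells. It was 31.2 (25.4 to 38), 6.45 (4.35 to 9.21), 47.8 (41.6 to 54.6) and 12.5 (9.91 to 15.7) CPM, and both libraries with the CD40 antibody lay below both without it. The log2 ratios were -2.27 (-2.92 to -1.67) and -1.93 (-2.32 to -1.55), 4.84-fold and 3.81-fold lower. It also rose with the PD1 antibody, at log2 ratios of 0.61 (0.27 to 0.97) and 0.96 (0.33 to 1.62). After thinning to 2000 UMIs per cell, 4.83, 0.541, 8.54 and 2.04% of NK cells had a Vegfa UMI (unthinned 10.7, 4.86, 19.3 and 8.52%), and 8, 0, 5 and 2 shallower cells were left out. The thinned share in CD8 T cells was 0.159, 0.284, 0.297 and 0.203%. The control, PD1 and combination shares of NK cells lay above it, and the CD40 share, from 2 cells, was near it. Free RNA in the droplets was not measured. NK cells held fewer median UMIs than CD8 T cells in every library, so the CD8 share need not match the free RNA of NK cells. In NK cells without proliferation UMIs Vegfa was 35.4, 9.83, 51 and 19.7 CPM, and the log2 ratios were -1.85 (-2.63 to -1.14) and -1.37 (-1.81 to -0.95). Melanoma markers summed to 5.04, 1.72, 2.88 and 2.41 CPM and C1q transcripts were highest in PD1, where Vegfa was too, and their part was not tested. Within libraries, NK cells with a Vegfa UMI (52, 18, 125 and 42 cells) were at least 1.5-fold higher in every library for 9 of 19 glycolysis and 7 of 11 hypoxia genes, against 4.24% of genes. Slc16a3 was 54.1, 207, 61.3 and 139.8 CPM in them and 11.9, 31.2, 16.1 and 47.6 CPM in the rest. All 6 genes that rose with the CD40 antibody were among these. Counts under 3 were set to 3, however, which in so few cells can by itself lift genes of few UMIs, such as Egln3, past 1.5-fold. The share over all genes is subject to the same floor. The all-gene medians of this split were 0.00, 0.25, -0.04 and 0.01 (log2).

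**Figure D4:**
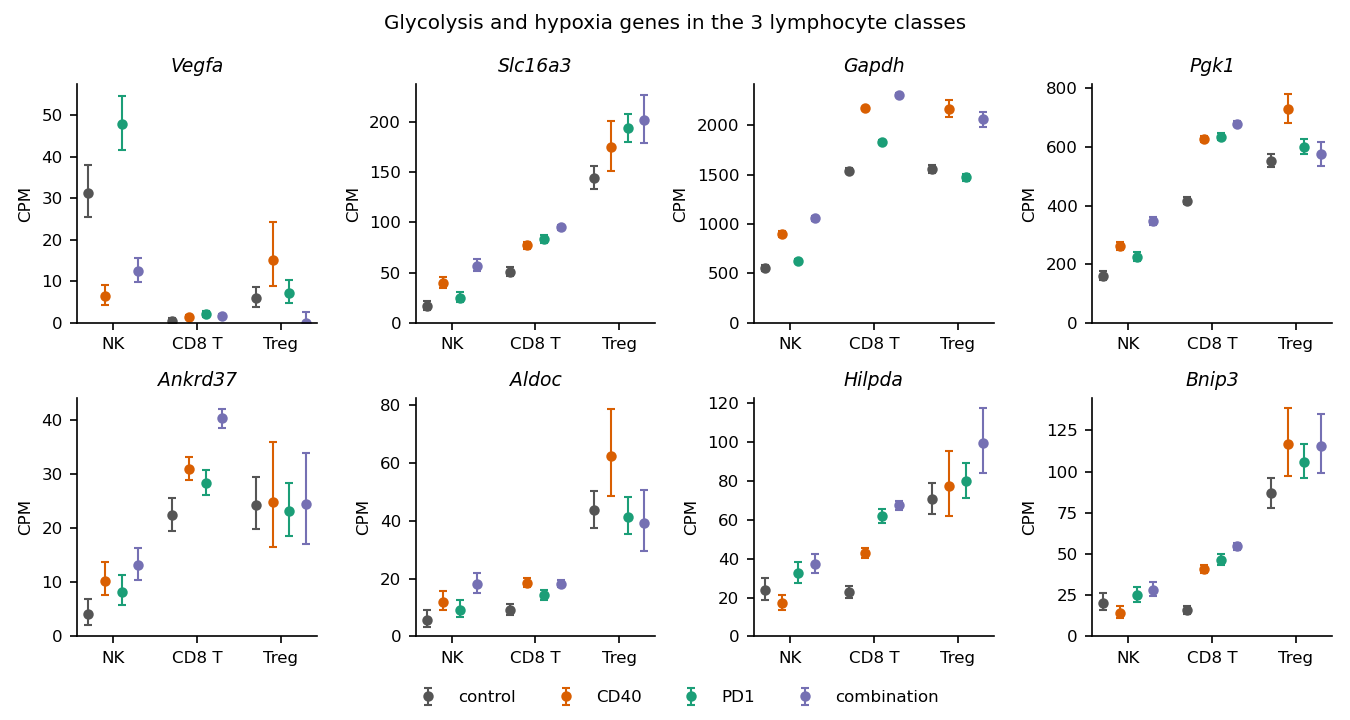
CPM of selected genes in CD8 T cells, regulatory T cells and NK cells, 1 point per library with its 95% Poisson interval, on linear axes from 0. In NK cells Gapdh is 898 and 1056 CPM in the libraries with the CD40 antibody and 555 and 624 CPM in those without, while Vegfa is 6.45 and 12.5 CPM against 31.2 and 47.8 CPM.

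With the PD1 antibody 3 NK genes rose, Aldoc, P4ha1 and Vegfa, and none fell, against 0.577% of genes higher and 0.943% lower. P4ha1, a collagen prolyl hydroxylase subunit, was 21.1, 20.9, 33.4 and 32.8 CPM, with log2 ratios of 0.66 (0.24 to 1.10) and 0.65 (0.30 to 1.02). Under a gate that asked for 10 NK marker UMIs none of the 3 passed, and none of them passed in cells without proliferation UMIs.

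**Figure D5:**
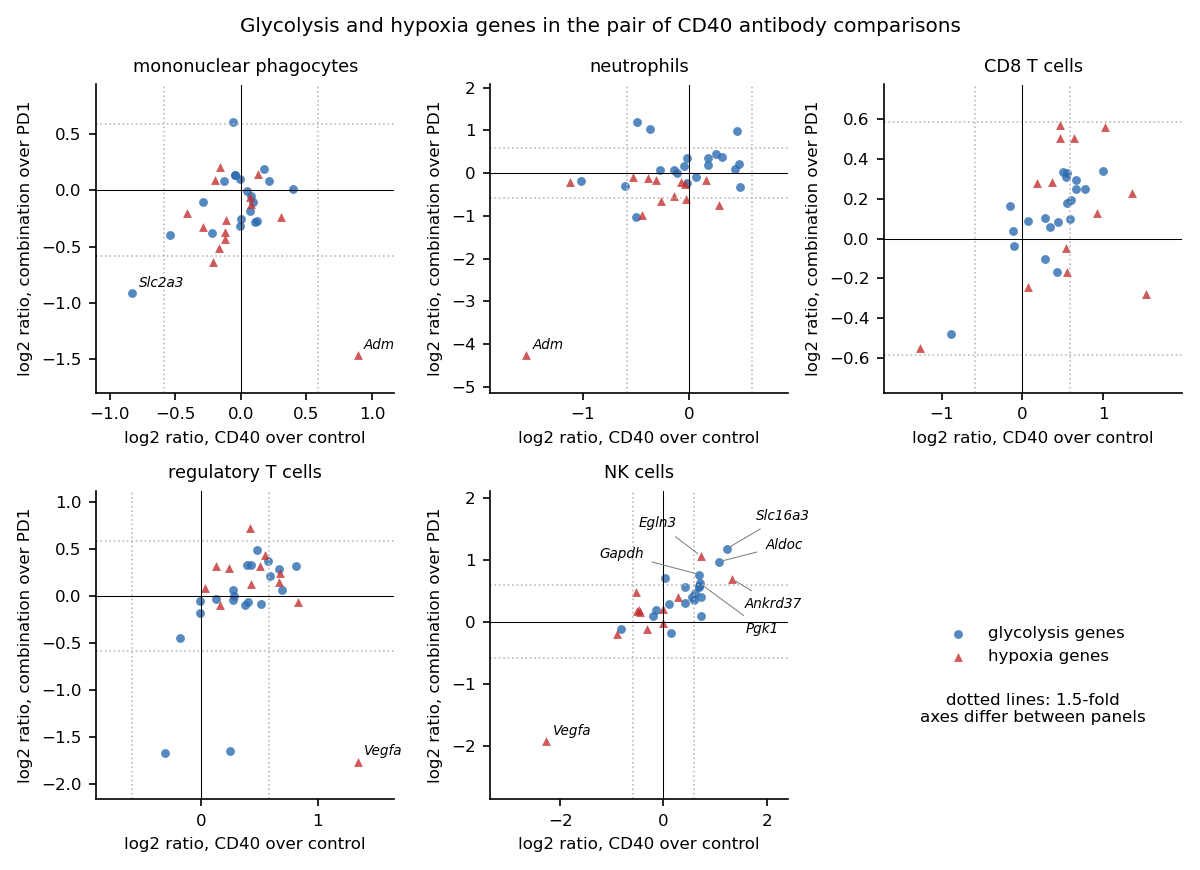
Log2 ratio of each measured gene for CD40 over control (x axis) and combination over PD1 (y axis), 1 panel per cell class with its own axes, glycolysis genes as circles and hypoxia genes as triangles, dotted lines at 1.5-fold. In NK cells 6 genes lie past both lines at upper right and Vegfa at lower left, and in phagocytes Slc2a3 lies at lower left and Adm at lower right.

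The other genes of these pathways, listed apart from the 34, were read in the same way. With the CD40 antibody 3.87% of all genes rose and 4.03% fell in phagocytes, 3.01 and 9.21% in neutrophils, 3.51 and 5.01% in CD8 T cells, 1.7 and 4.77% in regulatory T cells and 6.21 and 7.28% in NK cells. With the PD1 antibody the shares were 2.78 and 5.07%, 1.06 and 5.36%, 1.12 and 2.03%, 1.25 and 2.17%, and 0.577 and 0.943% in the same order. Each of the 40 counts for the other sugar metabolism and hypoxia-response genes, both antibodies and directions included, differed by fewer than 2 genes from what these shares give. Of the other sugar metabolism genes, with the CD40 antibody 2 of 27 rose and 1 fell in phagocytes (Gpd1 and Eno3, and Ldhb), and 0 of 23 rose and 2 fell in neutrophils (Bpgm and Pfkfb2). In CD8 T cells 0 of 26 rose and 2 fell (Slc2a6 and Eno3), in regulatory T cells 1 of 24 rose (Pfkm) and 3 fell (Slc2a6, Eno3 and Pygl), and in NK cells 0 of 24 rose and 2 fell (Hk3 and Slc2a6). Hk3, the hexokinase of myeloid cells, rose with the PD1 antibody in phagocytes. It was 147, 187, 277 and 289.9 CPM there, with log2 ratios of 0.92 (0.88 to 0.95) and 0.63 (0.60 to 0.66). Of the other hypoxia-response genes, 0 of 25 rose and 2 fell in phagocytes (Epas1 and Plod2), and 1 of 20 rose in neutrophils (Ak4). In CD8 T cells 2 of 26 rose (Stc2 and Rora), in regulatory T cells 2 of 21 (Epas1 and Bhlhe40) and in NK cells 1 of 21 (Epas1), with none falling in these 4 classes. Epas1, which encodes HIF-2 alpha, was 1.88, 0.583, 0.614 and 0.403 CPM in phagocytes and 1.26, 4.08, 1.77 and 3.05 CPM in NK cells. Its log2 ratios were -1.69 (-2.17 to -1.23) and -0.61 (-1.31 to 0.07) in phagocytes and 1.70 (0.11 to 3.71) and 0.79 (-0.47 to 2.19) in NK cells, opposite in direction. With the PD1 antibody Angptl4 fell in phagocytes, Pdhb in neutrophils and Ak4 in regulatory T cells, and no other gene of these lists was called apart from Hk3. None of 12 respiratory chain genes was called in any of the 5 classes with either antibody, and in NK cells their medians were 0.16 and 0.17. Of the 12 proliferation genes, 11 fell in phagocytes and 2 rose in regulatory T cells with the PD1 antibody, with which Mki67 fell in neutrophils. In neutrophils 5 rose with the CD40 antibody, and none was called in CD8 T cells. Of the 10 dissociation stress genes, with the CD40 antibody Fos fell in neutrophils and Atf3 in CD8 T cells and in regulatory T cells, and none was called in phagocytes. With the PD1 antibody Hspa1b rose in regulatory T cells and in NK cells.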

How the data were processed

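The authors deposited unnormalized UMI counts for each gene in each barcode, made with Cell Ranger 7.0.0 on GRCm38 per the submitters' processing notes. The sources used here do not say whether intronic reads were counted. Cells needed 300 genes and no more than 10% mitochondrial UMIs (13 genes), and those with a Scrublet score of at least 0.25 (scanpy 1.11.5), 1.41 to 2.59% per library, were removed as predicted doublets. 7736, 7757, 9681 and 9481 cells remained. Classes needed 5 UMIs of their own markers (10 for neutrophils, with more neutrophil than phagocyte marker UMIs), 2 of Cd8a and Cd8b1 for CD8 T cells and 1 of Foxp3 for regulatory T cells. Phagocytes were divided at 10 C1q UMIs and at 3 UMIs of Ly6c2 or of Ace, Treml4 and Adgre4. Cells with markers of several classes (309, 262, 331 and 320) or of none (412, 383, 385 and 422) were left out, and these thresholds were set after marker counts had been seen. Comparisons were made in classes that held 100 cells or more in each library.

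UMIs were summed per class and library, with exact Poisson intervals for CPM and exact conditional binomial intervals for ratios. Counts under 3 were set to 3, which makes such a ratio a bound. Genes needed 30 UMIs over the 4 libraries. Lists were read by counts and medians, without a test, because each group is 1 library. To compare shares of cells, each cell was thinned to 2000 UMIs. All 34 genes may be named, and of the other lists (other sugar metabolism, other hypoxia response, proliferation, respiratory chain, dissociation stress) those past the 1.5-fold rule. The members and lists were chosen with earlier results of these data known. Calculations were tested on simulated data. Alternatives varied scaling, cell weights, doublet and cell filters, gates, gene minimum, cycling cells and depth. The scripts ran in Python 3.11.15 with matplotlib 3.10.9, anndata 0.12.19, scipy 1.17.1, pandas 2.3.3 and numpy 2.4.6.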

Additional observations from a re-analysis of the deposited data

Results flagged for a closer look

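Differences between cell classes in how their hypoxia genes moved with the CD40 antibody were not tested. The hypoxia median was above 0 in both comparisons in CD8 T cells and regulatory T cells and below 0 in both in phagocytes and neutrophils. Over all genes the medians were -0.05 and -0.36 in neutrophils, so the second neutrophil hypoxia median lay above that of all genes. They were -0.02 and 0.03 in CD8 T cells, -0.04 and -0.06 in regulatory T cells and -0.02 and 0.01 in phagocytes. The gaps below were not adjusted for these all-gene medians. CD8 T cells lay above phagocytes by 0.66 (CD40 against control) and 0.48 (combination against PD1) on the log2 scale, and above neutrophils by 0.81 and 0.48. Regulatory T cells lay above phagocytes by 0.59 and 0.44, and above neutrophils by 0.73 and 0.44. The neutrophil median changed sign under median-of-ratios scaling for combination against PD1 and with equal weight per cell for CD40 against control.

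A pair of genes moved in opposite directions in the comparisons of the same antibody, also without a test. Adm in phagocytes had log2 ratios of 0.89 for CD40 against control and -1.46 for combination against PD1. Vegfa in regulatory T cells had 1.34 and -1.77, the second a bound, since the combination held 0 UMIs and 0 was set to 3. Its 71 UMIs in all make both values uncertain.

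Dendritic cells were not compared, because the CD40 library held 40 and the combination 43 of them, against 622 in the control and 431 in PD1. In those few cells some hypoxia genes stood above their levels in the libraries without the CD40 antibody. Those listed were picked because they lay far above in both CD40 antibody comparisons. The other members are not given here, and the share of all genes this far above was not computed. Vegfa was 103 CPM in the CD40 and 121 CPM in the combination library, against 8.7 in the control and 11 in PD1. Adm was 30.5 and 31.0 CPM (control 0.725, PD1 0.749), Egln3 38.7 and 39.4 CPM (8.46 and 7.62). Hilpda was 229 and 190.9 CPM (30.5 and 23.6) and Ero1l 167 and 230.3 CPM (28.9 and 35.7). Phagocyte markers summed to 247, 196, 510.5 and 407 CPM and neutrophil markers to 225, 385, 267 and 335 CPM in the dendritic cells of the 4 libraries, and their part was not tested.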

How the results depend on the processing

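Of 80 alternative values of the phagocyte and CD8 T cell list medians for the CD40 antibody, 63 lay within the margin set for them and 17 moved. The phagocyte glycolysis median of CD40 against control, near 0, was below 0 with equal weight per cell (-0.033) and at 5000 to 15000 UMIs, and these 2 were the ones whose sign differed from the reported value. In cells of 5000 to 15000 UMIs, a range chosen after the depths were seen, the phagocyte glycolysis medians were -0.39 (CD40 against control) and -0.39 (combination against PD1) and the hypoxia medians -0.37 and -0.65. The CD8 T cell medians were 0.91 and 0.57 for glycolysis and 0.77 and 0.70 for hypoxia. Without cycling cells the phagocyte hypoxia medians were -0.012 and -0.16, and the CD8 T cell medians 1.00 and 0.45 (glycolysis) and 1.06 and 0.51 (hypoxia). With equal weight per cell, values for combination against PD1 were -0.36 (phagocyte hypoxia) and 0.37 (CD8 T cell hypoxia), and the CD8 T cell glycolysis median of CD40 against control was 0.63. Members called with the CD40 antibody numbered 4 instead of 1 in phagocytes of 5000 to 15000 UMIs. In neutrophils they numbered 2 instead of 1 with equal weight per cell, 2 with a minimum of 10 UMIs, 3 without Il1a-carrying cells (also chosen after the data were seen) and 0 under the stricter gate. In CD8 T cells they numbered 1 instead of 0 without mitochondrial and ribosomal genes in the scaling, 1 with doublets kept, 4 with equal weight, 7 without cycling cells and 15 at 5000 to 15000 UMIs. In regulatory T cells they numbered 3 instead of 0 without cycling cells and 1 at 5000 to 15000 UMIs. Values of called genes that changed sign were Adm in neutrophils, CD40 against control, under the stricter gate (0.047), Aldoc in neutrophils, PD1 against control, with equal weight (0.056), and Hk2 in regulatory T cells, PD1 against control, at 5000 to 15000 UMIs (0.15). The causes were not tested. Over all classes and comparisons, 381 of 400 list medians kept their sign. No library could be left out, since each group has 1.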
